A study of Saccharomyces cerevisiae with 10 samples.

Results

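The genes described here encode the kinetochore, the protein assembly that joins each centromere to a spindle microtubule, and the spindle pole body, the yeast structure that nucleates those microtubules. The 57 genes were listed by name from complexes known in budding yeast, out of 7252 genes in the table. They comprise 38 genes of the kinetochore and its regulators, 4 genes for proteins of microtubule plus ends and 15 genes of the spindle pole body. By name 56 were found, and 1, NDC80, under its older name TID3. All 57 had enough counts to be tested.

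The libraries were made from a prototrophic BY4741-based Saccharomyces cerevisiae strain that carried sfGFP behind pRPL28, the promoter of a ribosomal protein gene. After 4 h in rich YPD medium, cells spent 1 h in medium whose nitrogen source was 0.8 mM proline. Fluorescence-activated cell sorting on GFP and side scatter gave a low and a high fraction, and events that looked like doublets or budding yeast were gated out. Polyadenylated RNA of each pool of sorted cells was sequenced. There were 5 low and 5 high libraries, of which the study set aside 2 low libraries, L2_2609 and L1_2709, after a principal component analysis of FPKM, so that 3 low libraries (L1_2609, L2_2709 and L_2909) were compared with 5 high libraries (H1_2609, H2_2609, H1_2709, H2_2709 and H_2909). Values of the 2 libraries set aside are given beside the others for the called members and for some other genes. Unless 5 low or all 10 libraries are named, ranges, means and fold changes of low are those of the 3 libraries compared. The labels do not say whether the libraries of a fraction came from separate cultures, so p-values measure the spread between these libraries.

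In budding yeast each centromere carries 1 nucleosome with the histone variant Cse4, on which an inner kinetochore of DNA-binding and linker proteins and an outer kinetochore of microtubule-binding proteins are stacked. The spindle pole body is a layered plaque set in the nuclear envelope, and it is duplicated once per cell cycle from a bridge beside the old one. Transcription of many of these genes is known to be periodic in dividing cells, peaking between late G1 and mitosis.

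Every member that passed the test was lower in low than in high, and the calls were spread over all groups of members but the CBF3 complex. NDC10 of that complex was not among the 57 and was called lower in edgeR's test (adjusted p = 0.0073). Its adjusted p was 0.53 in all 10 libraries and 0.13 with replicate codes as a block. In L2_2609 and L1_2709, the low libraries set aside, NDC10 was at 0 and 24.7 CPM, against 18.3 to 30.5 CPM in high. In edgeR's quasi-likelihood test over all 6492 genes tested, with Benjamini-Hochberg adjustment and a threshold of 0.05, 11 of the 57 members were called lower in low, which is 19.3% of them, against 4.33% of all genes tested. None was called higher, against 0.832% of all genes tested. In this fit no member was higher at an unadjusted p under 0.05 either, and DESeq2 and limma-voom also called 0 members higher. At that unadjusted limit 1 member was higher in all 10 libraries, 1 without H1_2609, 1 without L2_2709 and 1 without L_2909. The 11 were NUF2, STU2, CSE4, MPS3, SPC34, SGO1, SPC98, SPC110, NSL1, NDC80 and DAM1. The log2 fold change, low minus high, was below 0 in 46 members and above 0 in 11, with a median of -0.49, while its median over all genes tested was -0.024. In 24 members (42.1%) all 3 low libraries lay below all 5 high libraries, against 10.7% of all genes tested. In 0 members did they all lie above, against 4.78% of all genes tested. Summed over the 57 members, the level was 1866 to 2034 CPM (counts scaled to a common library size) in low and 2385 to 2602 CPM in high.

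**Figure D1:**
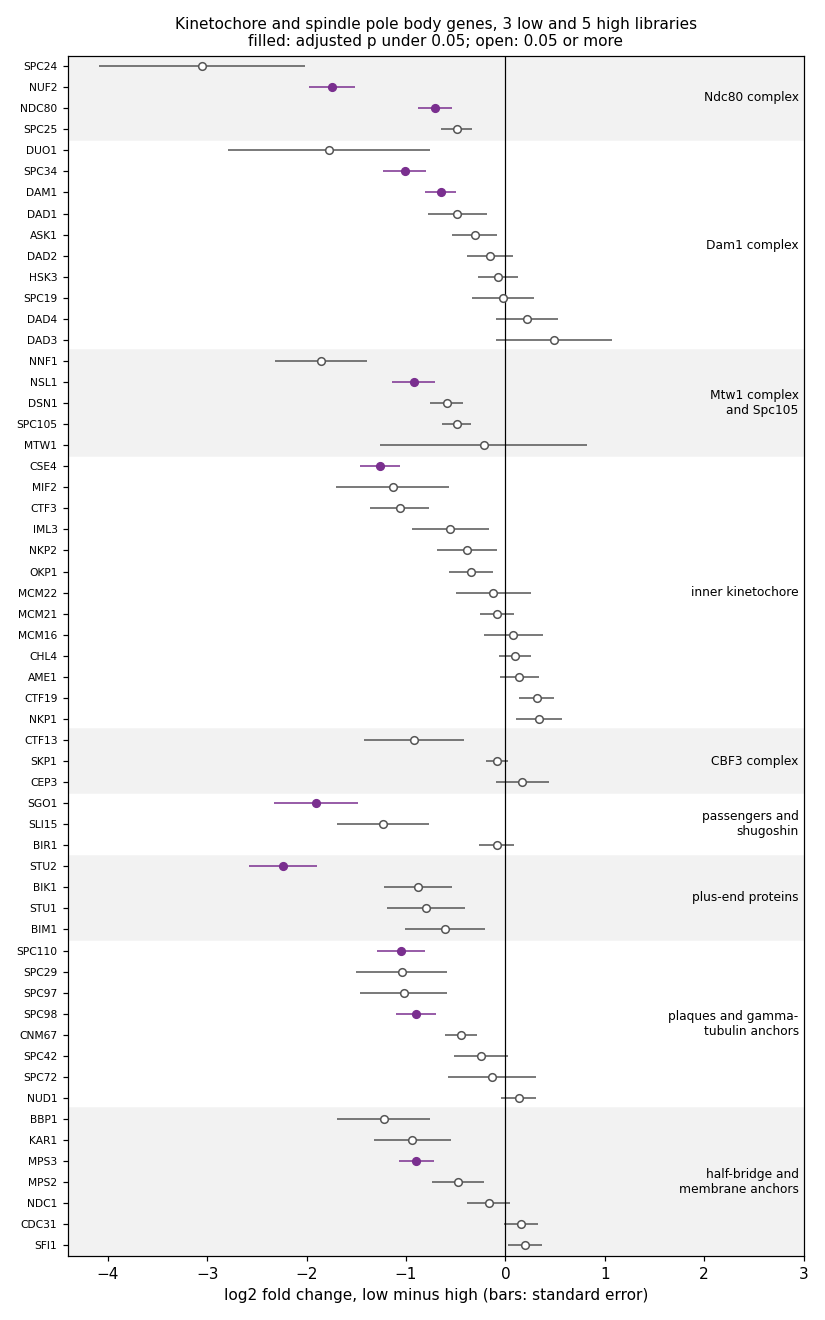
The horizontal axis shows the log2 fold change, low minus high, of each of the 57 members, grouped by complex, with bars for the standard error (SE, 3 low and 5 high libraries). Filled points are the 11 members with an adjusted p under 0.05, all to the left of 0. The median over the members was -0.49.

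The number of calls depended on the libraries and on the model. In the fit to all 10 libraries, 7 members were called lower, against 2.84% of all genes tested, and the median log2 fold change was -0.64. MPS3, SPC34, NDC80 and DAM1 were no longer called. Each low library shares a replicate code with a high library. With these codes as a block in the 8 libraries, 2 members, NUF2 and STU2, were called lower, against 1.22% of all genes tested. That blocked comparison rests on 3 pairs, since the low partners of H2_2609 and H1_2709 were set aside. DESeq2 called 16 members, adding SPC24, NNF1, DSN1, SPC105 and CTF3, against 6.94% of all genes tested, and limma-voom called 6, against 3.31%. Leaving out 1 library changed both the members called lower and the share of all genes called lower. Without H1_2609 they were 6 members and 3.35% of all genes, without H2_2609 7 members and 2.74%, without H1_2709 3 members and 1.61%, without H2_2709 3 members and 1.65%, and without H_2909 7 members and 3.28%. Without L1_2609 they were 8 members and 5.59% of all genes, without L2_2709 6 members and 3.7%, and without L_2909 13 members and 5.72%. NUF2, STU2 and CSE4 were called without any 1 of these 8 libraries. H1_2709 and H2_2709 were the high libraries most alike, at a chi-square per degree of freedom of 35.6 between their counts. It was 125.3 to 410.4 between the other pairs of high libraries. Whether H1_2709 and H2_2709 came from separate cultures is not stated, and the part of their likeness in the calls was not tested.

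Library names end in 1 of 3 codes whose meaning is not stated. Of the 57 members, 40 were lower in L1_2609 than in the mean of H1_2609 and H2_2609 (median log2 ratio -0.37, with 0.5 CPM added to both). In L2_2709 45 were lower than in the mean of H1_2709 and H2_2709 (median -0.81), and in L_2909 46 were lower than in H_2909 (median -0.47). Each of these rests on 1 low library.

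Markers of cell cycle stage also differed between the fractions. All 9 listed G2/M genes were called lower in low, and their summed level was 146 to 234 CPM in low and 965 to 1474 CPM in high. Over all genes tested, 4.33% were called lower and 0.832% higher. Of 9 G1/S genes 3 were called lower (summed 121 to 160 CPM in low and 195 to 381 CPM in high), and of 8 histone genes 5 were called lower (3022 to 3378 CPM in low and 3668 to 4982 CPM in high). Of 8 genes of newborn daughter cells, DSE1, DSE2 and CTS1 were called higher and EGT2 lower, and the sum was 2110 to 2861 CPM in low and 632 to 1059 CPM in high. With replicate codes as a block, 7 of the 9 G2/M genes, 1 of the 9 G1/S genes and 1 of the 8 histone genes were called lower, and of the daughter genes 3 were higher and 1 lower. With this block 1.22% of all genes tested were called lower, and 18 of 6492 were called higher. In L2_2609 and L1_2709, the low libraries set aside, the G2/M sums were 184.6 and 302.6 CPM and the G1/S sums 140.4 and 180.3 CPM. The histone sums there were 2928 and 3390 CPM, and the daughter sums 2187 and 1621 CPM. None of these 34 markers had at most 3 counts in all 3 low libraries. The part of a different mix of stages in the members' fold changes was not tested, and in bulk RNA fewer cells of a stage and less RNA per cell cannot be told apart.

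Total counts were 18977794 to 23644299 in the 3 low libraries, 15879779 (L1_2709) and 21503922 (L2_2609) in the 2 set aside, and 22167864 to 27752702 in high. Genes at 0 counts numbered 983 to 1552 in the 5 low libraries and 383 to 511 in the high libraries, and genes with 1 to 9 counts 28 to 47 in the low libraries and 275 to 345 in the high libraries. Of the members, 8 overlap another annotated gene and their counts are uncertain, since the strand setting is not stated. These are DAD4, ASK1, MTW1, CTF19, NKP2, SKP1, SPC110 and NDC1. Among them only SPC110 was called. The gene it overlaps, YDR355C, had 0 counts in the 3 low and the 5 high libraries compared, which leaves the counts of SPC110 uncertain too.

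The stretch before each gene was searched for 3 short sequences bound by regulators of periodic transcription in yeast. These were ACGCGT (MCB, bound by MBF), CGCGAAA (SCB, bound by SBF) and GTAAACA (bound by forkhead proteins), searched on both strands of the window from 250 bases before to 50 bases after the annotated start in the R64 genome of RefSeq. Of the 57 member windows, 7 (12.3%) held the MCB letters, 14 (24.6%) the SCB letters and 10 (17.5%) the forkhead letters. In 5980 windows of protein-coding genes the shares were 3.08%, 3.61% and 6.57%. At least 1 of the 3 was present in 27 members (47.4%) and in 12.4% of all windows. Among the 11 called members 6 (54.5%) held at least 1, and NUF2, STU2, NSL1, NDC80 and DAM1 held none. MCB and SCB both contain CGCG, though the same CGCG cannot match both. A match is a run of letters and not evidence of binding, and neighbouring genes can share a window.

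The matches of the 6 called members are printed with 11 bases on each side, because these are the genes whose fold changes are described. They run 5′ to 3′ on the strand of the gene, with the motif letters in capitals. The SCB matches lie at chrXI:346910-346938 for CSE4, chrXI:511876-511904 for SPC34 and chrX:402694-402722 for MPS3. The MCB match lies at chrIV:1185952-1185979 for SPC110, and the forkhead matches at chrXV:464616-464644 for SGO1, chrXIV:387079-387107 for SPC98 and chrXI:346740-346768 for CSE4. The first 6 end 89 to 185 bases before the start codon, and the last lies inside the coding sequence. CSE4 and SPC34 are on the minus strand and the others on the plus strand.
CSE4 SCB: tcccactgtgtCGCGAAAtcgcggaagta
SPC34 SCB: ccttgtggaagCGCGAAAataagcaagag
MPS3 SCB: aacatatgagaCGCGAAAatggaatataa
SPC110 MCB: ttaccctaattACGCGTtataagtttta
SGO1 forkhead: ccttttgttttGTAAACAaagaaatttca
SPC98 forkhead: gcgtcgcgtttGTAAACAaaactaaacaa
CSE4 forkhead: aatcatgtcaaGTAAACAacaatgggtta

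The Ndc80 complex is the rod that grips the microtubule, with Ndc80 and Nuf2 at the microtubule end and Spc24 and Spc25 at the centromere end. All 4 genes had every one of the 3 low libraries below the 5 high libraries, and 2 were called. The median log2 fold change of the complex was -1.23. NUF2 (YOL069W, chromosome XV, 198942 to 200297) had 9.31, 10.01 and 14.8 CPM in the 3 low libraries, in the order given above, 8.66 and 22.7 CPM in L2_2609 and L1_2709, and 39.2, 31.04, 44.1, 39.8 and 36.9 CPM in the 5 high libraries. All 5 low values lay below the lowest high value. The mean was 11.4 ± 2.98 CPM in low (SD, n = 3) and 38.2 ± 4.78 CPM in high (SD, n = 5), a ratio of 0.298, and low minus high was -1.75 on the log2 scale (SE 0.23) at an adjusted p of 0.0041. With replicate codes as a block the adjusted p was 0.034.

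NDC80 (YIL144W, chromosome IX, 78074 to 80149), which encodes the partner of Nuf2 in a heterodimer, had 67.97, 70.3 and 55.3 CPM in the 3 low libraries, 55.9 and 85.9 CPM in the 2 set aside, and 132, 97.8, 109.7, 108 and 82.2 CPM in high. One of the low libraries set aside, L1_2709, reached above the lowest high library. Its fitted log2 difference was -0.71, SE 0.17, and its adjusted p 0.043, and the adjusted p was 0.052 in all 10 libraries and 0.14 with the block. The call was lost without any 1 library except H_2909, at adjusted p of 0.063 to 0.11 and log2 fold changes of -0.62 to -0.77. SPC24, added to the genes described after its values were seen because it was the scarcest of the 4, had 0, 4.45 and 0.920 CPM in low, 5.47 and 3.75 CPM in the 2 set aside and 16.7, 12.7, 13.3, 17.6 and 13.9 CPM in high. Its log2 fold change was -3.05 with SE 1.03 (adjusted p = 0.15), and its adjusted p was 0.011 with DESeq2, 0.23 in all 10 libraries and 0.24 with the block. Without L1_2609, the low library at 0, the log2 fold change was -2.46 (adjusted p = 0.048), without L2_2709 it was -5.04 (adjusted p = 0.029), and without any other 1 library the adjusted p was 0.19 to 0.29. Per gene length, in FPKM (fragments scaled to gene length and library size), the 4 subunits ranged from 2.76 (SPC24) to 62.8 (SPC25) in low, a ratio of 22.8, and from 22.7 (SPC24) to 87.9 (SPC25) in high, a ratio of 3.87.

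The Dam1 complex forms a collar around the microtubule that keeps the kinetochore attached to shortening ends. Of its 10 genes, 2 were called lower, 8 had a log2 fold change below 0 and the median was -0.23. DAM1 (YGR113W, chromosome VII, 718893 to 719924), the subunit that aurora kinase phosphorylates to release faulty attachments, had 70.8, 61.1 and 64.1 CPM in the 3 low libraries, 65.3 and 23.5 CPM in the 2 set aside and 84.8, 87.9, 111, 112 and 118 CPM in high. All 5 low libraries lay below the high libraries, and L1_2709 was far below the other low libraries. The mean was 65.3 ± 4.98 CPM in low (SD, n = 3) and 103 ± 15.3 CPM in high (SD, n = 5), with a log2 difference of -0.65 (SE 0.16, adjusted p = 0.043). The adjusted p was 0.11 in all 10 libraries and 0.21 with the block, and the call was also lost without L1_2609, L2_2709, L_2909, H1_2709, H2_2709 or H_2909 (log2 fold changes of -0.59 to -0.72).

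SPC34 (YKR037C, chromosome XI, 510910 to 511797), another subunit of the collar, had 15.5, 14.1 and 17.8 CPM in the 3 low libraries, 25.4 and 15.4 CPM in the 2 set aside and 35.5, 26.8, 35.7, 37.4 and 24.8 CPM in high. L2_2609, 1 of the libraries set aside, overlapped the lowest high library. Low minus high was -1.01 on the log2 scale (SE 0.22) at an adjusted p of 0.031, and the adjusted p was 0.09 in all 10 libraries and 0.22 with the block. The call was lost without L1_2609, L2_2709, H1_2609, H1_2709 or H2_2709, at -0.93 to -1.003. The other 8 subunits were not called and spread from -1.78 for DUO1 to 0.49 for DAD3 on the log2 scale. These ends of the range belonged to scarce transcripts. DUO1 had 4.65, 0 and 7.06 CPM in low and 7.22, 11.1, 13.1, 19.2 and 16.5 CPM in high, and DAD3 had 8.83, 23.2 and 2.71 CPM in low and 6.22, 9.67, 8.65, 11.5 and 5.15 CPM in high. DAD3 was at 0.889 and 0 CPM in the 2 low libraries set aside, and its log2 fold change was -0.21 in all 10 libraries and -0.50 without L2_2709. In FPKM the subunits ranged from 5.20 (DUO1) to 150.4 (DAD4) in low and from 17.8 (DUO1) to 129 (DAD4) in high.

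The Mtw1 complex connects the inner kinetochore to the Ndc80 complex, and Spc105 is the scaffold beside it that checkpoint proteins dock on. All 5 genes had a log2 fold change below 0 (median -0.59), and 4 had all 3 low libraries below the high ones. NSL1 (YPL233W, chromosome XVI, 106172 to 106822), an Mtw1 complex subunit, was called. It had 25.05, 22.1 and 40.9 CPM in the 3 low libraries, 27.1 and 39.6 CPM in the 2 set aside and 50.9, 56.3, 59.6, 51.6 and 60.3 CPM in high, so that all 5 low values lay below every high value. Its fitted log2 difference was -0.92, SE 0.22, and its adjusted p 0.04, and the adjusted p was 0.041 in all 10 libraries and 0.13 with the block. The call was lost without any 1 library except L_2909, at -0.75 to -0.95. NNF1, also named after its values were seen, had 5.39, 1.72 and 7.31 CPM in low, 3.29 and 23.4 CPM in the 2 set aside and 13.5, 16.2, 15.98, 23.6 and 17.96 CPM in high. Its log2 fold change of -1.85 (SE 0.46) had an adjusted p of 0.052, which became 0.042 without L2_2709 and 0.033 without L_2909, and 0.45 in all 10 libraries. MTW1 itself, with 0 counts in L2_2709, had a log2 difference of -0.22 (SE 1.04), which was 0.36 without that library. DSN1 and SPC105 had log2 fold changes of -0.59 and -0.49 (adjusted p = 0.083 and 0.10). In FPKM the group ranged from 5.79 (MTW1) to 44.7 (NSL1) in low and from 6.73 (MTW1) to 84.2 (NSL1) in high.

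In the inner kinetochore, which recognises the centromeric nucleosome, CSE4 was the 1 gene of 13 called. CSE4 (YKL049C, chromosome XI, 346075 to 346764) encodes the centromeric histone H3 variant. It had 23.96, 16.7 and 18.1 CPM in the 3 low libraries, 23.5 and 36.3 CPM in the 2 set aside and 41.8, 43.3, 56.1, 54.01 and 40.5 CPM in high. The 5 low values were all under the 5 high ones, with L1_2709 closest. The mean was 19.6 ± 3.85 CPM in low (SD, n = 3) and 47.1 ± 7.31 CPM in high (SD, n = 5), a ratio of 0.416. Low minus high was -1.26 on the log2 scale (SE 0.20) at an adjusted p of 0.0095, with an adjusted p of 0.039 in all 10 libraries and 0.095 with the block.

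The remaining 12 inner kinetochore genes, which encode the Cse4 reader Mif2 and the subunits of the Ctf19 assembly, had log2 fold changes from -1.14 for MIF2 to 0.34 for NKP1. The median of the 13 was -0.12, and 5 were above 0. Among them, CTF19, CHL4 and AME1 had log2 fold changes of 0.31, 0.094 and 0.14 (adjusted p = 0.41, 0.84 and 0.80). CTF3, chosen after its values were seen, had all 3 low libraries below the high ones and -1.06 (adjusted p = 0.078), and DESeq2 called it. In FPKM the 13 ranged from 3.65 (MIF2) to 76.8 (CHL4) in low and from 7.98 (MIF2) to 71.6 (CHL4) in high.

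The CBF3 complex binds centromeric DNA, and of its 3 genes listed none was called by edgeR, DESeq2 or limma-voom, nor had an unadjusted p under 0.05. CTF13, an F-box subunit with the smallest p of the 3, had 10.96, 4.79 and 2.10 CPM in the 3 low libraries, 9.11 and 0 CPM in the 2 set aside and 11.3, 8.88, 11.8, 9.67 and 14.7 CPM in high. The groups overlapped, and low minus high was -0.92 on the log2 scale (SE 0.50) at an adjusted p of 0.39. It was -1.71 without L1_2609 (adjusted p = 0.061) and -0.52 without L_2909 (adjusted p = 0.52). SKP1, which also serves in ubiquitin ligases, had the highest level of all members, at 366 FPKM in low and 386 FPKM in high, with a log2 difference of -0.086 (SE 0.11). Its span overlaps another gene by 33.3%, so its counts are uncertain.

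Sli15 and Bir1 are partners of the aurora kinase Ipl1 in the chromosomal passenger complex, and Sgo1, shugoshin, senses tension at centromeres. SGO1 (YOR073W, chromosome XV, 464771 to 466543) was called. It had 2.09, 6.03 and 7.004 CPM in the 3 low libraries, 6.49 and 5.43 CPM in the 2 set aside and 24.1, 19.2, 16.97, 20.4 and 13.7 CPM in high, with no overlap between the 5 low and the 5 high libraries. The mean was 5.04 ± 2.60 CPM in low (SD, n = 3) and 18.9 ± 3.88 CPM in high (SD, n = 5), a ratio of 0.267. Its fitted log2 difference was -1.90, SE 0.42, and its adjusted p 0.032, with an adjusted p of 0.028 in all 10 libraries and 0.21 with the block, and the call was lost without L2_2709, H1_2609, H2_2609, H1_2709 or H2_2709 (-1.80 to -2.05). SLI15 and BIR1 had log2 fold changes of -1.23 and -0.086 (adjusted p = 0.19 and 0.86). In FPKM, SGO1 was lowest of the 3 in low (2.82) and SLI15 in high (8.88), and BIR1 was highest in both (20.99 and 22.2).

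Among the 4 plus-end proteins, STU2 (YLR045C, chromosome XII, 235037 to 237703), which encodes the microtubule polymerase of the XMAP215 family, had the largest log2 fold change of all called members. It had 9.35, 19.2 and 29.2 CPM in the 3 low libraries, 14.6 and 8.01 CPM in the 2 set aside and 75.5, 87.5, 100.4, 113 and 78.8 CPM in high. The highest low library was far below the lowest high library. The mean was 19.2 ± 9.92 CPM in low (SD, n = 3) and 91.1 ± 15.7 CPM in high (SD, n = 5), a ratio of 0.211. Low minus high was -2.24 on the log2 scale (SE 0.34) at an adjusted p of 0.0073, with an adjusted p of 0.0012 in all 10 libraries and 0.016 with the block. STU2 was the most abundant of the 4 per length in high (7.15 FPKM in low and 33.6 FPKM in high), whereas BIM1 was the most abundant in low (18.4 FPKM in low and 27.98 FPKM in high). STU1 was lowest in both (2.34 FPKM in low and 4.05 FPKM in high). BIK1, STU1 and BIM1, which encode the CLIP-170, CLASP and EB1 relatives, had log2 fold changes of -0.88, -0.80 and -0.61 (adjusted p = 0.21, 0.33 and 0.49).

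**Figure D2:**
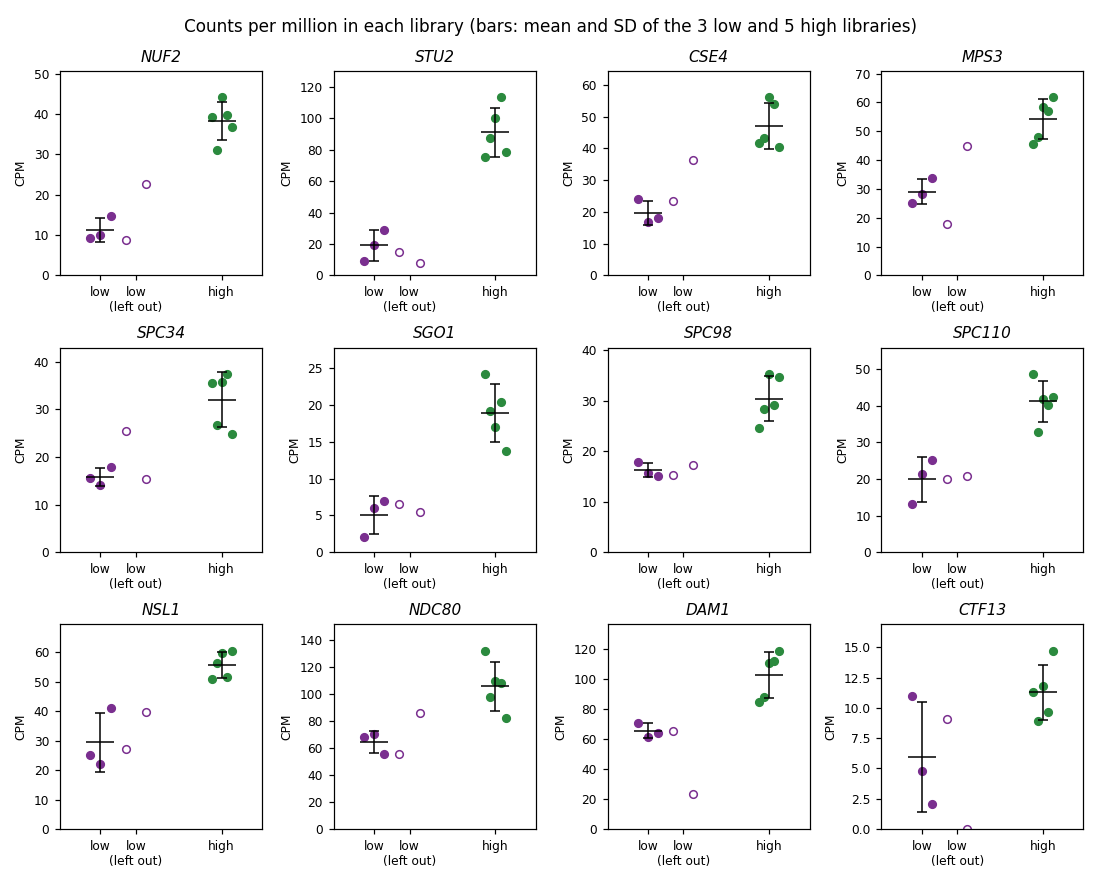
Each panel shows the CPM of 1 gene in every library, for the 11 called members in order of p and for CTF13. Filled purple points are the 3 low libraries, open purple points the 2 low libraries set aside and green points the 5 high libraries, with the mean and SD as bars. The 3 low libraries lie below all high libraries in the 11 called members, and CTF13 overlaps.

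In the spindle pole body, 2 of 8 genes of the plaques and their gamma-tubulin anchors were called lower, and the median log2 fold change was -0.68. SPC98 (YNL126W, chromosome XIV, 387227 to 389767), a subunit of the gamma-tubulin complex that seeds microtubules, had 17.8, 15.7 and 15.1 CPM in the 3 low libraries, 15.4 and 17.3 CPM in the 2 set aside and 24.6, 28.3, 35.2, 29.2 and 34.6 CPM in high. The 5 low libraries lay close together and below the high ones. Its fitted log2 difference was -0.90, SE 0.20, and its adjusted p 0.034, with an adjusted p of 0.039 in all 10 libraries and 0.30 with the block. The call was lost without L2_2709, L_2909, H2_2609, H1_2709, H2_2709 or H_2909, at -0.85 to -0.93.

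SPC110 (YDR356W, chromosome IV, 1186107 to 1188941) encodes the rod that anchors this complex to the nuclear face of the central plaque. It had 13.2, 21.3 and 25.1 CPM in the 3 low libraries, 19.9 and 20.9 CPM in the 2 set aside and 48.6, 32.9, 41.9, 40.3 and 42.4 CPM in high, again without overlap. Low minus high was -1.05 on the log2 scale (SE 0.24) at an adjusted p of 0.036, with an adjusted p of 0.023 in all 10 libraries and 0.15 with the block. The call was lost without L1_2609, L2_2709, H1_2609, H1_2709, H2_2709 or H_2909, at -0.83 to -1.10. The other 6 genes ranged from -1.05 for SPC29 to 0.13 for NUD1, and SPC97, the partner of Spc98 in the gamma-tubulin complex, had -1.02 (SE 0.44, adjusted p = 0.26). In FPKM the 8 ranged from 4.41 (SPC97) to 68.6 (NUD1) in low and from 8.92 (SPC97) to 62.3 (NUD1) in high.

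The bridge beside the pole body, from which a new one grows, and the proteins that hold the plaque in the nuclear membrane were represented by 7 genes, with a median log2 fold change of -0.48. MPS3 (YJL019W, chromosome X, 402897 to 404945), which encodes a SUN-domain protein of the bridge and nuclear envelope, was the 1 called. It had 25.2, 28.1 and 33.8 CPM in the 3 low libraries, 17.9 and 44.9 CPM in the 2 set aside and 45.7, 48.1, 58.5, 57.1 and 61.7 CPM in high. The highest low value, from L1_2709, was just below the lowest high value. Its fitted log2 difference was -0.90, SE 0.17, and its adjusted p 0.021, with an adjusted p of 0.074 in all 10 libraries and 0.10 with the block. The call was lost without L2_2709, H1_2709 or H2_2709, at -0.87 to -0.88. CDC31, the yeast centrin, and SFI1, the long protein that Cdc31 binds in the bridge, had log2 fold changes of 0.15 and 0.19 (adjusted p = 0.73 and 0.63). BBP1 and KAR1 had -1.23 and -0.94 (adjusted p = 0.19 and 0.24). In FPKM the 7 ranged from 6.29 (BBP1) to 154 (CDC31) in low and from 13.95 (KAR1) to 138 (CDC31) in high.

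**Figure D3:**
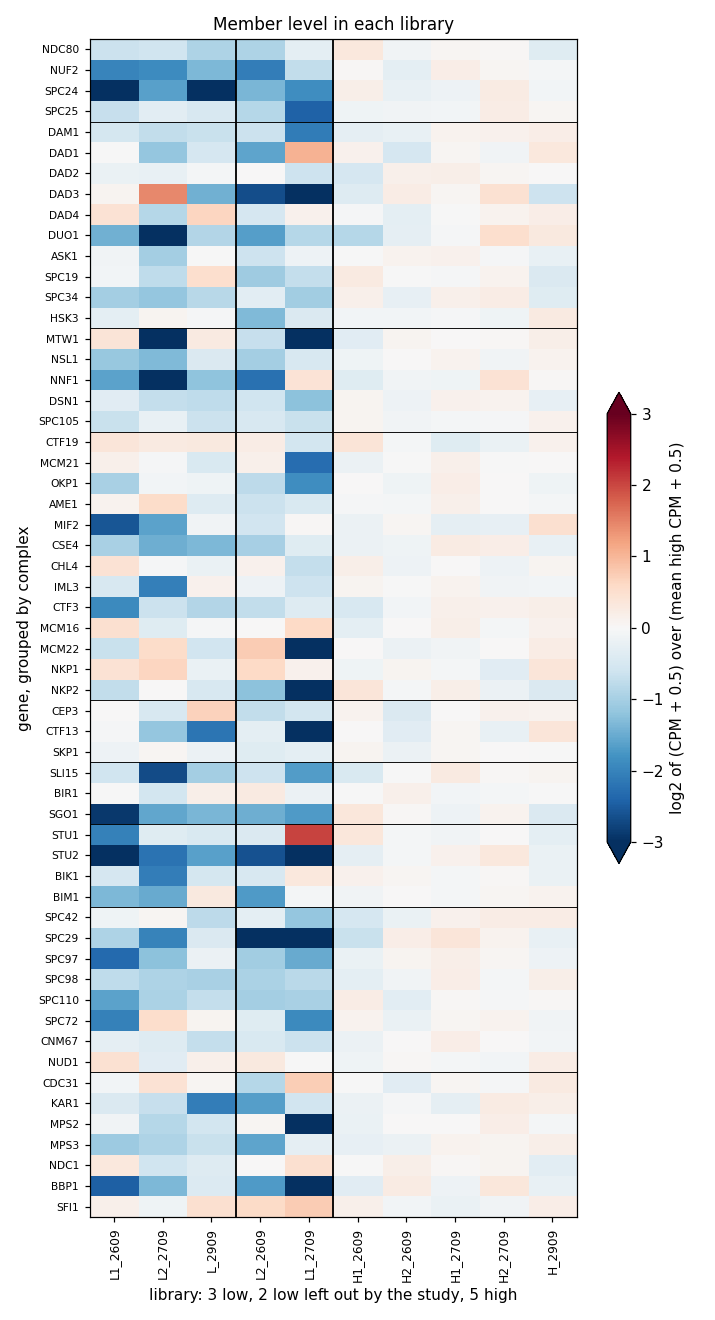
Each row is a member, grouped by complex, and each column a library, with the 3 low libraries at left, the 2 low libraries set aside next and the 5 high libraries at right. Colour shows the log2 ratio of CPM to the mean of the high libraries, with 0.5 CPM added to both. Darkest blue cells include the values of 0 in low libraries, such as SPC24 in L1_2609, MTW1 and DUO1 in L2_2709 and 8 members in L1_2709.

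The members differed more between low libraries than between high libraries. The median SD of log2 CPM over the members was 0.474 in the 3 low libraries and 0.200 in the 5 high libraries, and over all genes tested 0.304 in low and 0.248 in high. No member had at most 3 counts in all 3 low libraries, a pattern seen in 1.66% of all genes tested. In 3 members, SPC24, DUO1 and MTW1, 1 of the 3 low libraries had 0 counts, against 10.4% of all genes tested with at most 3 counts in at least 1. MTW1 was 1 of 3 members at 5 to 10 CPM in high, where 21.9% of all genes had this pattern, and SPC24 and DUO1 were 2 of 16 members at 10 to 20 CPM, where 5.51% did. L1_2709 had 0 counts for 8 members (MPS2, BBP1, NKP2, MCM22, CTF13, DAD3, SPC29 and MTW1), L2_2609 for 1 (SPC29) and the high libraries for none. The smallest count above 0 of any member was 18 to 58 in the 5 low libraries and 119 to 191 in the high libraries. The part that these 0 counts play in the fold changes was not tested.

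The median fold change of the members lay below that of all genes in each range of expression that held members. Members with a mean of 10 to 20 CPM in high had a median log2 fold change of -0.99 (16 members, 1 called), against -0.13 for all genes at that level, of which 0.919% were called lower. At 20 to 40 CPM the medians were -0.42 over 14 members (3 called) and -0.055 over all genes (3.04% called lower). At 40 to 80 CPM they were -0.47 over 18 members (4 called) and -0.049 over all genes (4.65% called lower), and at 80 CPM or more -0.37 over 6 members (3 called) and 0.015 over all genes (3.83% called lower). The 3 members at 5 to 10 CPM had a median of -0.12 (0 called), against -0.052 over all genes at that level (0.327% called lower). No member lay below 5 CPM, where the median over 733 genes was -0.25 and 11.5% were called lower.

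**Figure D4:**
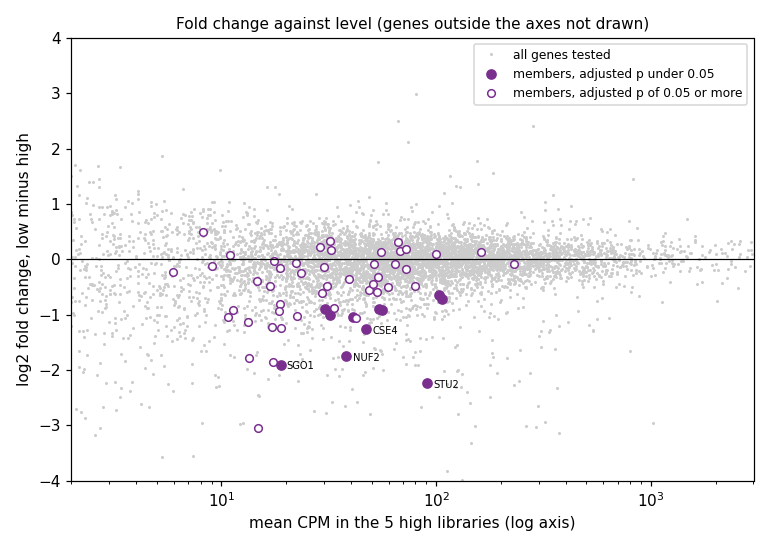
The horizontal log axis shows the mean CPM in the 5 high libraries and the vertical axis the log2 fold change, low minus high. Grey dots are all genes tested, open circles members not called and filled circles the 11 called members, of which STU2, NUF2, SGO1 and CSE4 are named. Scarce members scatter more widely, and STU2, at 91.1 CPM in high, lies at -2.24.

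Other spindle genes were also called lower. Of 36 listed genes outside the 57, all tested, 14 were called, each lower in low, against 4.33% of all genes tested called lower. These were 2 of 11 other kinetochore genes, 3 of 6 spindle checkpoint genes and 9 of 19 genes for tubulins, kinesins, dynein and midzone proteins. The 6 with the smallest adjusted p were TUB2, TUB1, CIN8, CIK1, IPL1 and MPS1. TUB2, beta-tubulin, averaged 65.1 CPM in low and 272 CPM in high (log2 fold change -2.06, adjusted p = 0.00093). TUB1, the major alpha-tubulin, averaged 115 CPM in low and 358 CPM in high (-1.63, adjusted p = 0.0016). CIN8, a kinesin that pushes spindle poles apart, averaged 10.3 CPM in low and 35.1 CPM in high (-1.77, adjusted p = 0.0022). CIK1, a partner of a minus-end kinesin, averaged 7.91 CPM in low and 40.4 CPM in high (-2.35, adjusted p = 0.0044). MPS1, a kinase of the checkpoint and of pole body duplication, averaged 53.7 CPM in low and 109 CPM in high (-1.02, adjusted p = 0.0059). The adjusted p of MPS1 was 0.0028 in all 10 libraries and 0.086 with the block. TUB2, TUB1, CIN8 and CIK1 stayed under 0.05 in both fits. IPL1, the aurora kinase that Sli15 and Bir1 accompany, had 0 counts in the 3 low libraries and in L1_2709, 2.35 CPM in L2_2609 and 2.65 to 5.60 CPM in high, so no fold is given (adjusted p = 0.0052). Its adjusted p was 0.42 in all 10 libraries and 0.199 with the block. Of the 36 genes, 10 were called lower in all 10 libraries and 4 with the block, against 2.84% and 1.22% of all genes tested.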

How the data were processed

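Gene counts were deposited by the authors for 10 libraries, with FPKM (fragments scaled to gene length and library size) computed by the authors beside them. Per the labels and the study's methods, reads were filtered and aligned with HISAT2 to the Ensembl release 75 annotation. The aligner version, the counting tool and its strand setting are not given in the sources used here. Deposited counts were tested with edgeR 4.0.16 in R 4.3.3 (TMM, filterByExpr, quasi-likelihood test, Benjamini-Hochberg adjustment over 6492 genes, threshold 0.05) in the 8 libraries the study used, with no covariate. CPM used TMM factors over all 10 libraries, and FPKM served to compare levels between genes. DESeq2 1.42.0, limma 3.58.1, other filters and scalings, all 10 libraries, blocks and omission of each library were alternatives.

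Low and high libraries share replicate codes. Over genes of at least 30 CPM, deviations of same-coded libraries correlated at r = 0.275, 0.103 and 0.302 in the 8 libraries, all above the limit of 0.1 set for pairing, so blocked values are given. In the 10 libraries r was 0.018 to 0.598.

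The members and lists were chosen with earlier results of these data known. Values in every library were given for members with an adjusted p under 0.05 and, in a complex with none, for the member with the smallest p. Up to 6 genes of the other lists were named by adjusted p. Genes described outside this rule are said to be so, or stand as the ends of a range. DSN1, SPC105, CTF19, AME1, BIK1, SFI1, DAD1 and NDC10 also lie outside the rule, though this is not said where they are described. On simulated counts of the 6492 genes with this design, edgeR recovered 89 of 100 genes changed by a log2 of 2. It recovered 49 of 100 changed by a log2 of 1, with 9 false calls. With replicate codes as a block these numbers were 82, 19 and 10. Only genes of at least 10 CPM were changed. Both fractions were drawn with the same spread and without an effect of the replicate code. In the data the low libraries had more spread and more genes at 0 counts, so the recovery there may differ.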

Additional observations from a re-analysis of the deposited data

Results flagged for a closer look

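For 17 genes, the 5 low and the 5 high libraries were each screened with Dixon's test for a library far from the others, and 2 of these 34 sets, both of low libraries, were picked out. Chance picks out about 1 in 20. DAM1 was at 23.5 CPM in L1_2709, with the nearest low library at 61.1 CPM. NNF1 was at 23.4 CPM in L1_2709, with the nearest low library at 7.31 CPM. L1_2709 is a library the study set aside, and it does not enter the comparison of 3 low with 5 high libraries.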

How the results depend on the processing

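Of 209 alternative values for the 11 called members, 129 kept their direction and call, 80 kept their direction without the call and 0 changed direction. NUF2 and STU2 were called in all 19 alternatives and CSE4 in 18. Members called lower numbered 6 with limma-voom, 7 in all 10 libraries, 6 with the name ending as covariate, 2 with the replicate block in 8 libraries and 6 with it in 10, against 11. Their median log2 fold change was -0.64 in all 10 libraries and -0.77 with the block in 10. Without 1 library, members called lower ranged from 3 to 13, all genes called lower from 104 to 375, higher from 9 to 70 and in total from 113 to 437, against 281, 54 and 335. DESeq2 called 446 genes lower, 156 higher and 602 in total. All genes called lower numbered 181 in all 10 libraries, 186 with the name ending and 175 with the block in 10, and the block in 8 gave 79 lower, 18 higher and 97 in total. DAD3 turned to -0.21 in all 10 libraries, -1.52 with the block in 10 and -0.50 without L2_2709 (-0.50 to 0.96 without any 1 library), against 0.49, and MTW1 to 0.36 without L2_2709 (-0.70 to 0.36), against -0.22. The causes were not tested. A member with 0 counts in a library, as 3 of the 57 had in 1 of the 3 low libraries, was not detected there. The smallest member count above 0 was 42 in L1_2609, 36 in L2_2709 and 18 in L_2909. A count of 0 in these libraries therefore does not bound a member's level at 3 counts.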

Other observations

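In L1_2709, STU1 was at 78.4 CPM and DAD1 at 64.6 CPM. In the other 9 libraries STU1 was at most 24.0 CPM and DAD1 at most 38.7 CPM.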
